A study of Mus musculus with 12 samples.

Results

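The 10 most downstream J genes seen of the mouse T cell receptor alpha locus, TRAJ15, TRAJ13, TRAJ12, TRAJ11, TRAJ9, TRAJ7, TRAJ6, TRAJ5, TRAJ4 and TRAJ2, are described here across T cell receptor libraries from mammary tumours. They were chosen by their position at the end of the J cluster, with earlier results of these data known. TRAJ14, TRAJ8, TRAJ3 and TRAJ1 had 0 rearrangements in the libraries used. Productive alpha chain (TRA) contigs of called cells were read from the deposited contig table, and each combination of V gene and CDR3 nucleotide sequence was counted once per library as 1 rearrangement. The 10 genes accounted for 1214 of 9383 rearrangements and for 10 of the 43 TRAJ genes seen. They were found in 1187 of the 8974 cells with a productive TRA.

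The alpha locus carries a long row of V genes (TRAV) followed by a row of J genes (TRAJ), and a developing thymocyte joins 1 of each to make an alpha chain. The joint falls inside CDR3, the loop that contacts the peptide held by an MHC molecule. The same allele can rearrange again, and each new joint uses a V gene farther upstream and a J gene farther downstream and deletes the DNA in between. Both alleles rearrange, so a T cell can carry 2 productive alpha chains. The J genes at the downstream end are the last that this process can reach.

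The cells were CD45+ leukocytes of mammary tumours grown in BALB/c mice, and the treated animals had received cyclophosphamide, an alkylating drug, with pexidartinib, an inhibitor of the CSF1 receptor, over 3 weeks. Of the 12 samples, 4 untreated and 4 treated were expression libraries, not analysed here, and 4 treated were receptor libraries. The receptor table named 11 libraries, and 6 were tied to a sample by number; the labels do not define the table's names PBS, CSF1R, CTX and Combined, which are used only as names. CTX, CTX2 and Combined were treated receptor libraries, CSF1R was tied to treated expression samples and PBS1 to an untreated one. For PBS2 the labels conflict, since the receptor sample is marked treated and the expression sample that the table pairs with it is marked untreated, so PBS2 entered no treated or untreated group. No label ties a library to a mouse, tumour model or age, so a p-value here reflects only how much these libraries vary, which may be technical.

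Depth differed widely between the libraries. They held from 245 called cells (PBS1) to 7629 (Combined) and from 145 to 7040 rearrangements, and Combined alone supplied 73.1% of the rearrangements with the 10 genes. The median TRA contig with one of the 10 genes rested on 3 unique molecular identifiers (UMIs, 1 per captured RNA molecule) in PBS2, CSF1R and Combined and on 9 in PBS1. Of the 11468 cell barcodes, 50 occurred in 2 libraries, and 0 of them carried the same TRA rearrangement in both. Other lineages were nearly absent from called cells, with 10 immunoglobulin contigs and 2 gamma or delta chain contigs in all, of which 1 lay in a cell using the 10 genes. Among 31 cells with the TRAV–TRAJ pair of NKT cells (TRAV11 with TRAJ18) or MAIT cells (TRAV1 with TRAJ33), 2 carried one of the 10 genes on another contig.

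Each J gene ends CDR3 with its own stretch of bases, by which its rearrangements can be recognised. The stretches below were read from the deposited CDR3 sequences, 5′ to 3′ on the coding strand, and show what the 10 genes bring to the receptor. Capitals mark positions shared by at least 90% of a gene's rearrangements with the usual last codon and lower case those shared by at least 50%.
TRAJ15: accaGGGAGGCAGAGCTCTGATATTT
TRAJ13: aaaTTCTGGGACTTACCAGAGGTTT
TRAJ12: gggaCTGGAGGCTATAAAGTGGTCTTT
TRAJ11: gactCGGGATACAACAAACTCACTTTT
TRAJ9: ggaaCATGGGCTACAAACTTACCTTC
TRAJ7: ggactACAGCAACAACAGACTTACTTTG
TRAJ6: cctcAGGAGGAAACTACAAACCTACGTTT
TRAJ5: gggacacAGGTTGTGGGGCAGCTCACTTTC
TRAJ4: tatCTGGTAGCTTCAATAAGTTGACCTTT
TRAJ2: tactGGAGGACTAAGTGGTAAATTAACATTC

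The shared stretch ran from 25 bases for TRAJ13 to 31 for TRAJ2. Joining trims the ends of J genes, and sharing falls off toward the left edge of each stretch. The CDR3 ended 1 base off the usual end in 10 of 96 TRAJ7 and 12 of 97 TRAJ6 rearrangements, and in no rearrangement of the other genes. It had the usual end in 57 of 63 TRAJ5 and 76 of 80 TRAJ11 rearrangements, and the rest of these ended elsewhere. In the RefSeq gene table of GRCm38.p6, an assembly of C57BL/6J and not of BALB/c, TRAJ15 lies at chr14:54204422-54204481 and TRAJ2 at chr14:54217836-54217901. The nearest genes upstream that the rule did not take are TRAJ16 at chr14:54203134-54203194, TRAJ17, TRAJ18 and TRAJ21.

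The 10 genes were used unevenly and, as a group, made up 12.9% of all rearrangements. Their summed share was 18.6% in PBS1 (exact Clopper-Pearson 95% interval 12.6 to 25.9), 14.1% in PBS2 (10.9 to 17.9), 14.2% in CSF1R (12.0 to 16.8), 13.4% in CTX (10.3 to 17.0), 12.5% in CTX2 (9.82 to 15.7) and 12.6% in Combined (11.8 to 13.4). The mean was 14.2% ± 2.26 (SD, n = 6). The intervals cover counting error only, and those of all 6 libraries overlapped. The median gene of the group was seen in 96.5 rearrangements in all, against 271 for a median TRAJ gene outside the group.

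**Figure D1:**
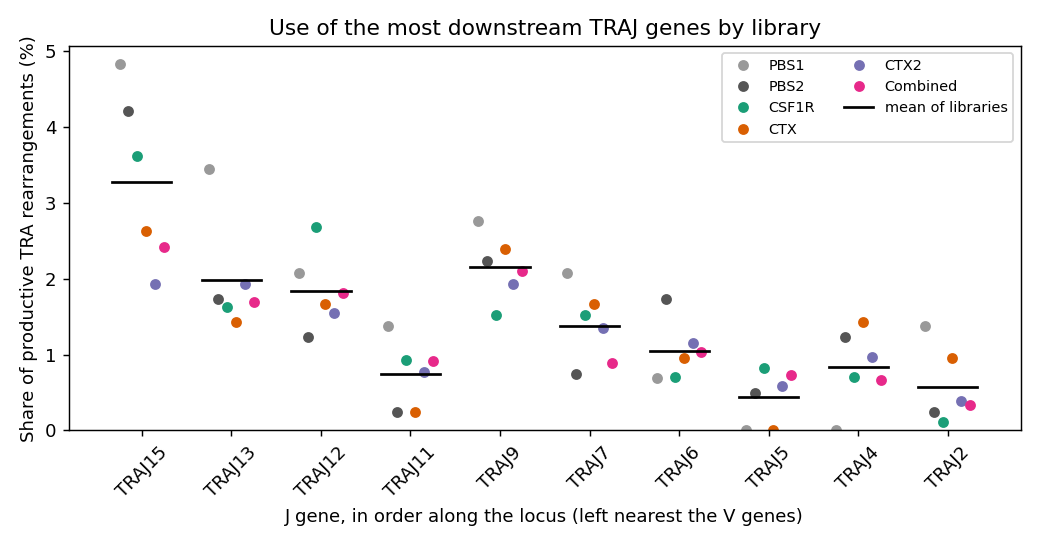
Share of productive TRA rearrangements (%) using each of the 10 J genes, ordered along the locus from TRAJ15 to TRAJ2. Each point is 1 library and each black line the mean of the 6 libraries; TRAJ15 has the highest mean (3.27%) and TRAJ5 the lowest (0.436%).

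TRAJ15, the gene of the group nearest the V genes, was the most used. Its share was 4.83% in PBS1, 4.21% in PBS2, 3.62% in CSF1R, 2.63% in CTX, 1.93% in CTX2 and 2.41% in Combined, a mean of 3.27% ± 1.13 (SD, n = 6). PBS1 and PBS2 were highest, on 7 and 17 rearrangements, and CTX2 lowest, on 10. With 246 rearrangements and 48 different TRAV partners it was the 12th most used of the 43 TRAJ genes by mean share.

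TRAJ9 (chr14:54209393-54209450) followed at 2.15% ± 0.42, with 2.76% in PBS1, 2.23% in PBS2, 1.52% in CSF1R, 2.39% in CTX, 1.93% in CTX2 and 2.10% in Combined. TRAJ13 (chr14:54205741-54205797) had a mean of 1.98% ± 0.738, which PBS1 raised: its share was 3.45% there (5 rearrangements) and 1.43 to 1.93% in the other 5 libraries. TRAJ12 (chr14:54206552-54206610) had a mean of 1.84% ± 0.499, and here CSF1R was highest, at 2.68% (23 rearrangements), and PBS2 lowest, at 1.24% (5 rearrangements). After TRAJ15 these were the more used genes of the group, and the means of these 3 lay below the 2.33% that equal use of the 43 genes would give.

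TRAJ7 (chr14:54211470-54211528) had a mean share of 1.37% ± 0.494 and ranged from 0.743% in PBS2 to 2.07% in PBS1, on 3 rearrangements in each. TRAJ6 (chr14:54212688-54212749) had a mean of 1.05% ± 0.384 and was highest in PBS2, at 1.73% (7 rearrangements), where TRAJ7 was lowest. Each rested on fewer than 100 rearrangements in all, 96 and 97.

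The least used genes of the group were TRAJ4, TRAJ11, TRAJ2 and TRAJ5. TRAJ4 (chr14:54216291-54216353) had a mean of 0.834% ± 0.506 and was not seen in the 145 rearrangements of PBS1. TRAJ11 (chr14:54207139-54207197) had a mean of 0.747% ± 0.44 and ranged from 0.239% in CTX (1 rearrangement) to 1.38% in PBS1 (2 rearrangements). TRAJ2, the last gene of the group, had a mean of 0.571% ± 0.49 from 34 rearrangements, the fewest of the 10 genes. TRAJ5 (chr14:54213777-54213838) had a mean of 0.436% ± 0.356 and was seen in neither PBS1 nor CTX, so it had the lowest mean share although its 63 rearrangements outnumbered those of TRAJ2.

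Ordered by mean share, neighbours differed by less than the SD of their difference over the libraries, with 1 exception. TRAJ15 exceeded TRAJ9 by 1.12 percentage points, with an SD of 1.03. The order TRAJ15, TRAJ9, TRAJ13, TRAJ12, TRAJ7, TRAJ6, TRAJ4, TRAJ11, TRAJ2, TRAJ5 is a description, and differences between neighbours were not tested. TRAJ12 was below TRAJ7 in no library and equal to it in PBS1 (2.07%) and CTX (1.67%). TRAJ15 and TRAJ9 were equal in CTX2, at 1.93%. Some genes farther apart did not overlap: TRAJ9 had at least 1.52% in every library, and TRAJ4, TRAJ11, TRAJ2 and TRAJ5 at most 1.43%. The genes just outside the group differed among themselves as much: TRAJ16, the next gene upstream, had a mean share of 0.865% ± 0.254, and TRAJ18 one of 3.13% ± 0.872.

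The first comparison asked whether treatment went with a different use of the downstream genes. The summed share was 13.2% ± 0.793 (SD, n = 4) in the treated libraries, which lay between 12.5% and 14.2%, and 18.6% in the single untreated library PBS1. The difference of -5.43 percentage points was not significant (two-sided exact permutation test, p = 0.2, the smallest p that 4 libraries against 1 can give). With PBS2 counted as untreated the treated mean was 3.18 points lower (exact permutation p = 0.133), and with PBS2 counted as treated 5.25 points lower (exact permutation p = 0.167, the smallest possible there). Counted over cells and not over rearrangements, the treated mean was 2.12 points lower (exact permutation p = 0.6). PBS1 was also the library with the fewest rearrangements, and the part of its size in the difference was not tested.

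TRAV partners of the downstream genes lay farther upstream on average than those of other TRAJ genes, and V genes at the J-proximal end were nearly missing among them. TRAV genes were numbered along the locus from 1, the most distant from the J genes, to 130 in the RefSeq table, in which all 77 TRAV names of the libraries matched. The mean number of the TRAV partner was 57.9 with the 10 genes and 68.6 with other TRAJ genes in PBS2, 60.5 and 68.3 in CSF1R, 59.7 and 67.2 in CTX, 53.3 and 67.5 in CTX2, and 57.7 and 66.9 in Combined. PBS1 went the other way, with 71.7 and 64.6, on 27 rearrangements. Over the 6 libraries the means were 60.2 ± 6.19 and 67.2 ± 1.44, a difference of -7.01 ± 7.36 (SD), lower in 5 of 6.

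This difference was not significant (exact sign-flip permutation of the 6 library differences, two-sided, p = 0.0625, adjusted p = 0.188 by Benjamini-Hochberg over the 9 measures compared within libraries). The smallest p that 6 libraries can give is 0.03125, so no measure of the 9 could pass 0.05 after adjustment unless several reached that floor. None of the 9 did (smallest adjusted p = 0.141 by the exact sign-flip permutation), and the differences in pairing and in CDR3 length had this adjusted p. Many TRAV genes exist as near-identical copies in 2 or 3 blocks of the locus, a reference copy of another strain was used for the order, and the copy that a contig was assigned to is uncertain. When every gene took the mean number of its family, the difference was -3.99 ± 1.55 and was lower in 6 of 6 libraries (exact sign-flip permutation p = 0.03125, adjusted p = 0.0938). With the single-copy TRAV families alone, the difference was -70.2 ± 24.6, lower in 5 of the 5 libraries that gave a value (exact sign-flip permutation p = 0.0625, the smallest possible, adjusted p = 0.188). Of the rearrangements with the 10 genes few enter there, 18 with TRAV1 or TRAV2 and 10 with TRAV17 to TRAV21-DV12. Of the 18, 10 were in Combined, 3 in PBS2, 2 in CSF1R, 1 in CTX and 2 in CTX2. Of the 10 with TRAV17 to TRAV21-DV12, 9 were in Combined and 1 in CSF1R. By genomic start in place of the number, exact sign-flip permutation p was 0.125. The library names fall into 4 that are plain numbers and 2 that begin with JR, and the difference was -4.68 in the former and -11.7 in the latter.

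**Figure D2:**
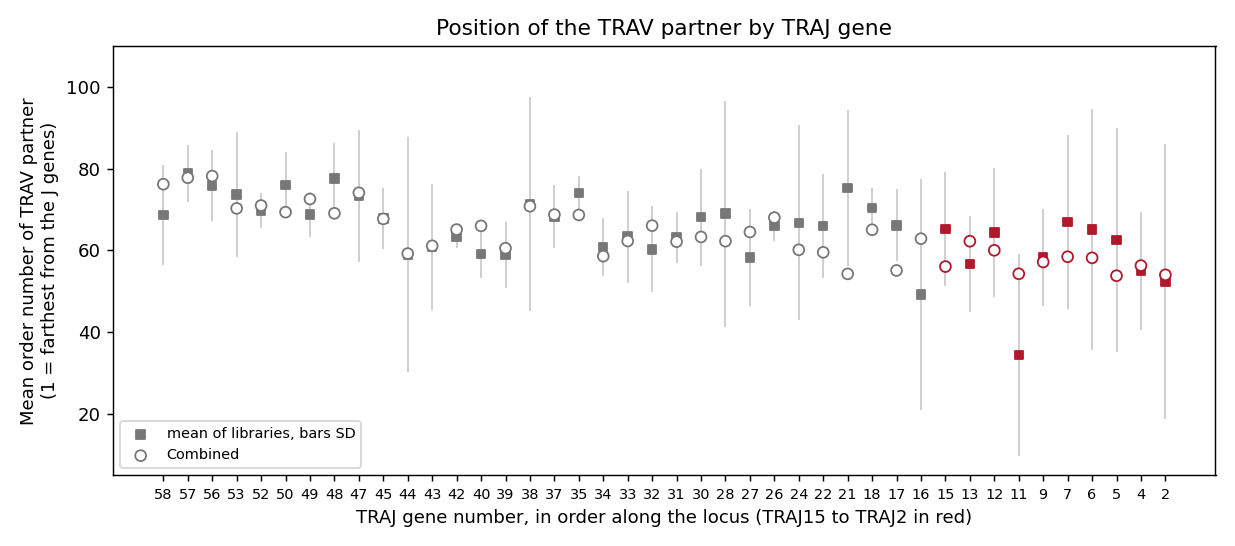
Mean order number of the TRAV partner (1 = farthest from the J genes) for each TRAJ gene with 20 or more rearrangements, in order along the locus, with TRAJ15 to TRAJ2 in red. Squares are means of the libraries with SD bars and circles are the Combined library, where the values fall from left to right (Spearman's rho -0.829 over 42 TRAJ genes).

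By stretches of the J row, the mean TRAV number was 72.3 ± 3.29 for TRAJ58 to TRAJ47, 63.5 ± 2.52 for TRAJ45 to TRAJ34, 64.7 ± 3.25 for TRAJ32 to TRAJ21, 65.8 ± 3.94 for TRAJ18 to TRAJ16 and 60.2 ± 6.19 for TRAJ15 to TRAJ2. It was highest at the upstream end, and the 3 middle stretches lay within an SD of each other. Against TRAJ58 to TRAJ47 alone the difference was -12.2 (exact sign-flip permutation p = 0.0625, adjusted p = 0.188). Against TRAJ32 to TRAJ21 alone, an alternative added after the values were seen, the difference was -4.52 (exact sign-flip permutation p = 0.0938, adjusted p = 0.281). In Combined, the largest library, Spearman's rho between the place of a TRAJ gene in the row and the mean TRAV number of its partners was -0.829 over 42 TRAJ genes, which share the library and its depth.

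Gene by gene, 9 of the 10 members and 14 of the 33 other TRAJ genes had a lower mean TRAV number than all remaining TRAJ genes. For TRAJ15 (-1.20 ± 14.8), TRAJ12 (-1.88 ± 16.3) and TRAJ6 (-1.17) the differences were far smaller than their SD and turned when 1 library was left out. Of 38 TRAJ genes seen in every library and tested alike, 0% passed an adjusted p of 0.05 by the exact sign-flip permutation (smallest adjusted p = 0.2375, with 5 genes at an unadjusted p under 0.05), 5.26% were lower in all 6 libraries and 7.89% higher in all 6. TRAJ13 was the only one of the 8 members tested that was lower in 6 of 6, with a mean of 56.7 and values from 33.8 in CTX2 to 65.8 in CSF1R. TRAJ11 was lower in 5 of 6, with a mean of 34.5, on 1 to 8 rearrangements in every library but Combined. TRAJ7 was the 1 member with a mean above the rest, by 0.683 ± 21.8, and without PBS1 its difference was -7.17. In Combined alone, where each member had at least 24 rearrangements, the 10 values lay between 53.8 (TRAJ5) and 62.3 (TRAJ13). For comparison, among TRAJ genes seen in every library those with the highest mean partner number were TRAJ57 (78.8), TRAJ48 (77.6) and TRAJ50 (76.0), and those outside the group with the lowest were TRAJ16 (49.3), TRAJ27 (58.3) and TRAJ39 (58.9).

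At the J-proximal end of the V row the contrast was large. TRAV17, TRAV18, TRAV19, TRAV20 and TRAV21-DV12, a list of V genes next to the J cluster that have no copies elsewhere, partnered 10 of 1214 rearrangements of the 10 genes and 398 of 8169 of other TRAJ genes. The share was 0% with the 10 genes in PBS1, PBS2, CTX and CTX2, 0.82% in CSF1R and 1.01% in Combined. With other TRAJ genes it was 1.69%, 4.90%, 4.41% and 3.97% in the former 4 libraries, 4.76% in CSF1R and 5.04% in Combined. The share was lower with the downstream genes in 6 of 6 libraries, with means of 0.306% ± 0.478 and 4.13% ± 1.25. In the small libraries a count of 0 allowed a share of up to 11.1% (PBS1), 5.26% (PBS2), 5.36% (CTX) and 4.62% (CTX2), so there the difference was not detectable at this depth.

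TRAV21-DV12 was found in 1 rearrangement with the 10 genes and in 178 with others. TRAV17 was found in 7 and 127, and TRAV19 in 2 and 89. The V genes at the opposite end, TRAV1 and TRAV2, had shares close to each other: they made up 2.15% ± 1.82 with the downstream genes and 2.37% ± 1.43 with others. Over the 10 most J-proximal TRAV genes of the table, the share fell from 10.1% ± 2.64 with TRAJ58 to TRAJ47 to 3.42% ± 2.32 with TRAJ45 to TRAJ34, 1.65% ± 1.45 with TRAJ32 to TRAJ21 and 0.306% ± 0.478 with TRAJ15 to TRAJ2, with 3.37% ± 4.58 for the few rearrangements of TRAJ18 to TRAJ16.

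**Figure D3:**
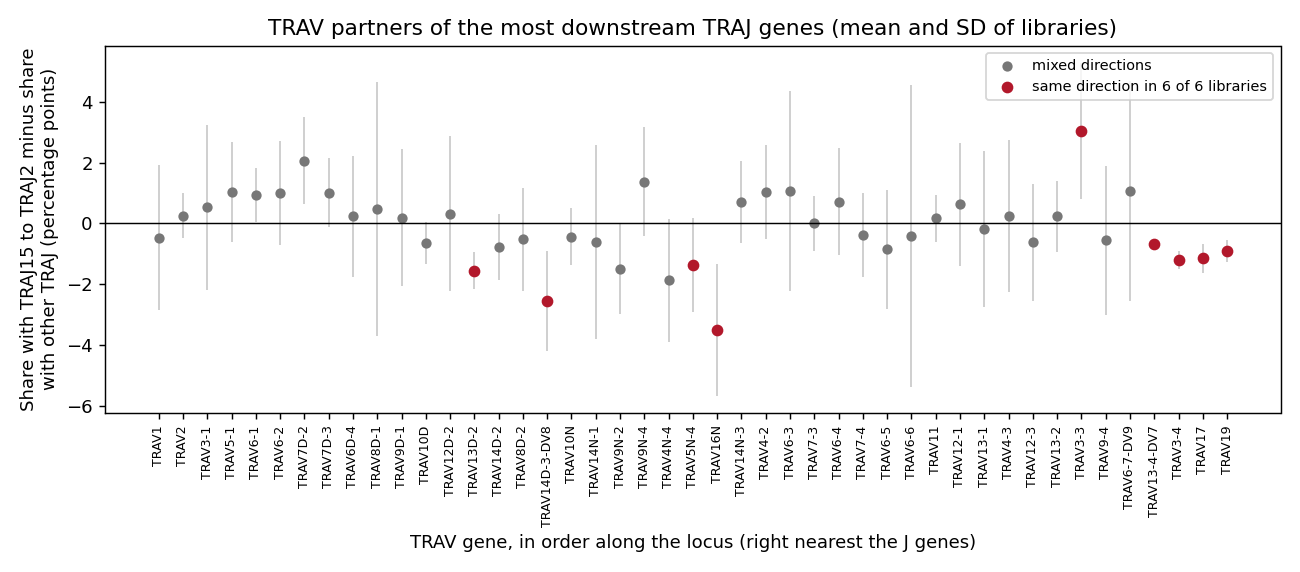
Difference in the share of each of 45 TRAV genes between rearrangements with TRAJ15 to TRAJ2 and with other TRAJ genes (percentage points, mean and SD of 6 libraries), in order along the locus with the J-proximal end at the right. Red points had 1 direction in 6 of 6 libraries: 8 TRAV genes were lower, among them the last 4 on the right, and TRAV3-3 was higher; each of the 8 was at 0 with TRAJ15 to TRAJ2 in at least 2 libraries.

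Single TRAV genes were compared in the same way. Of 45 TRAV genes with 20 or more rearrangements that were seen in every library, 0% passed an adjusted p of 0.05 (exact sign-flip permutation, smallest adjusted p = 0.156, with 9 genes at an unadjusted p under 0.05). Of these genes 17.8% were lower with the downstream J genes in all 6 libraries and 2.22% higher in all 6. The 8 lower genes were TRAV16N, TRAV14D-3-DV8, TRAV13D-2, TRAV5N-4, TRAV3-4, TRAV17, TRAV19 and TRAV13-4-DV7; TRAV5N-4, TRAV3-4 and TRAV13-4-DV7 are named after their values were seen. Testing required a TRAV gene to be seen in every library with any TRAJ gene, so a gene absent with the 10 genes could only be lower. Each of the 8 was absent with them in at least 2 libraries, and 6 in 4 or more, and the 5 smaller libraries held 27 to 122 rearrangements with the 10 genes. The count of lower against higher genes is therefore a description and carries no weight of its own. In Combined, where 887 rearrangements used the 10 genes, the share was 2.93% against 3.88% for TRAV16N, 0.451% against 3.25% for TRAV14D-3-DV8 and 0.676% against 1.77% for TRAV13D-2. It was 3.38% against 3.41% for TRAV5N-4.

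TRAV16N had the largest negative difference, with a mean of 2.43% against 5.93%. It was 0% with the downstream genes in PBS2 and CTX2 and 7.41% in PBS1, where other TRAJ genes had 8.47%. TRAV14D-3-DV8 had 0.588% against 3.13%, and in CTX2 its 3.08% and 3.09% were alike. TRAV13D-2 had 0.113% against 1.67% and occurred with the downstream genes in Combined alone. TRAV3-4 was found with none of 1214 rearrangements, which allows a share of up to 0.247%, and with 97 of other TRAJ genes. TRAV4N-4 had 1.22% against 3.08% and TRAV9N-2 0.793% against 2.29%, each lower in 5 of 6 libraries.

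Some of these are members of copied families: TRAV16N, number 79 in the row, is 1 of 3 TRAV16 genes, and the last of them is number 117. TRAV14D-3-DV8 is number 47 and TRAV13D-2 number 34. The family TRAV14 has 9 genes and reaches number 119, and TRAV4 and TRAV5 have 9 each and end at or beyond number 111. With whole families in place of single genes, 3 of 17 were lower in 6 of 6 libraries (TRAV16, TRAV17 and TRAV19) and 0 were higher.

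In the other direction, TRAV3-3 took 5.96% ± 2.7 of the rearrangements with the downstream genes and 2.91% ± 1.43 of the others. The shares were 7.41% and 4.24% in PBS1, 7.02% and 3.75% in PBS2, 6.56% and 4.49% in CSF1R, 8.93% and 1.93% in CTX, 4.62% and 1.99% in CTX2, and 1.24% and 1.06% in Combined. It was higher in 6 of 6 libraries, by 3.05 ± 2.24 points (exact sign-flip permutation p = 0.03125, adjusted p = 0.156). Leaving out 1 chain that libraries shared, an alternative added after the values were seen, brought the difference to 0.988 (exact sign-flip permutation p = 0.219).

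TRAV7D-2 was the runner-up, with 3.61% ± 1.12 against 1.55% ± 0.795, higher in 5 of 6 libraries (exact sign-flip permutation p = 0.0625, adjusted p = 0.256). It is number 9 in the row, near the distal end, and 1 of 14 TRAV7 genes, which lie from number 7 to number 114. TRAV3-3 is number 109, toward the J-proximal end. TRAV9N-4 had 2.32% against 0.944%, TRAV6-3 1.83% against 0.75% and TRAV6-7-DV9 4.67% against 3.61%. The last 2 were higher in 3 of 6 libraries, and without PBS1 their differences were -0.183 and -0.275 points. The most used partners of the downstream genes were TRAV3-3, TRAV6-6 (5.19%), TRAV6-7-DV9, TRAV12D-2 (4.46%) and TRAV9D-1 (4.01%). TRAV6-6, TRAV12D-2 and TRAV9D-1 had 5.60%, 4.14% and 3.82% with other TRAJ genes, differences well within their SD over libraries.

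In cells with 2 productive alpha chains, the partner of a chain with one of the 10 genes used one of them more often than the partner of another chain did, in every library, although the measure did not pass after adjustment. In the 1498 cells with 2 different productive TRA rearrangements, both used the 10 genes in 81, 1 did in 201 and neither did in 1216. The partner of a chain with one of the 10 genes used one of them too in 2 of 6 cases in PBS1 (33.3%), and in 53.3% of 15 in PBS2, 55.0% of 40 in CSF1R, 51.9% of 27 in CTX, 34.8% of 23 in CTX2 and 42.9% of 252 in Combined. The partner of a chain with another TRAJ gene did so in 8.33%, 6.54%, 10.1%, 8.39%, 5.58% and 7.68% in the same order. The 2 sets of shares did not overlap. Each cell enters once from each chain, so the 2 cases in PBS1 are the 2 chains of 1 cell.

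The log2 odds ratio was 2.46 in PBS1, 3.92 in PBS2, 3.40 in CSF1R, 3.50 in CTX, 3.17 in CTX2 and 3.17 in Combined, with 0.5 added to each count. Its mean was 3.27 ± 0.486 (SD, n = 6), above 0 in 6 of 6 libraries (exact sign-flip permutation p = 0.03125, the smallest possible, adjusted p = 0.141). It was 3.32 in the numbered and 3.17 in the JR libraries. Cells carrying at least 2 productive beta or 3 productive alpha contigs can be doublets. Without them it was 2.85 (exact sign-flip permutation p = 0.0625). With each pair of rearrangements counted once per library, an alternative added after the values were seen, it was 3.20.

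**Figure D4:**
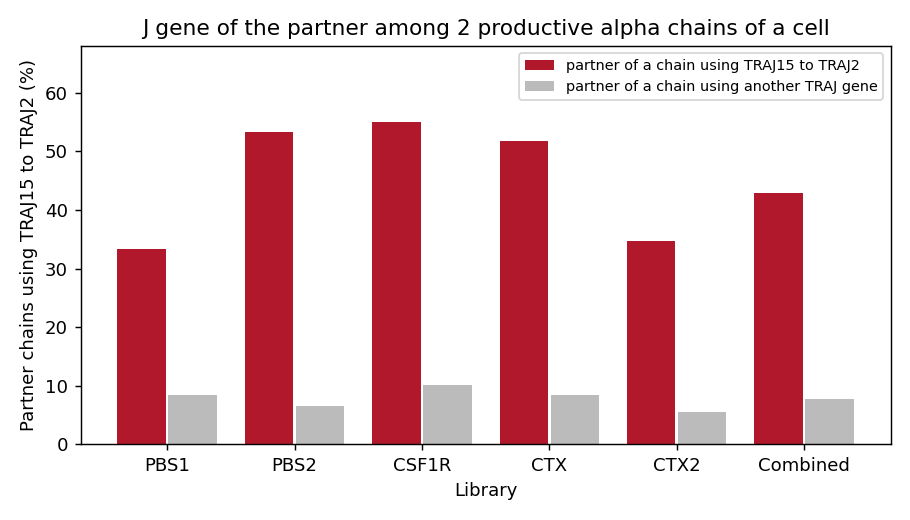
Share of partner chains (%) using TRAJ15 to TRAJ2 in cells with 2 different productive TRA rearrangements, by library, for chains using TRAJ15 to TRAJ2 (red) and chains using another TRAJ gene (grey); each cell enters once from each chain. Red bars lie between 33.3% (PBS1, 6 chains) and 55.0% (CSF1R), grey bars between 5.58% and 10.1%.

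The partners of the 2 kinds of chain spread differently over the J row. Of the 363 partners of chains with the 10 genes, 7.71% used TRAJ58 to TRAJ47, 13.2% TRAJ45 to TRAJ34, 20.7% TRAJ32 to TRAJ21, 13.8% TRAJ18 to TRAJ16 and 44.6% the 10 genes. Of the 2633 partners of other chains, 34.03% used TRAJ58 to TRAJ47 and 7.63% the 10 genes. Among all rearrangements the 5 stretches had 31.7%, 25.7%, 21.8%, 7.81% and 12.9% in the same order. The 34.03% thus lay near the overall share of TRAJ58 to TRAJ47. For comparison, TRAJ58 to TRAJ47 had a mean log2 odds ratio of 5.13 ± 1.56 with itself, TRAJ45 to TRAJ34 one of 1.39 ± 1.08, TRAJ32 to TRAJ21 one of 2.17 ± 1.74 and TRAJ18 to TRAJ16 one of 0.02 ± 1.80. The mean of the 10 genes was below that of TRAJ58 to TRAJ47 and above those of the other 3 stretches, and none of the 4 differences passed 0.05, with adjusted p = 0.0833, 0.0625, 0.25 and 0.0625 in that order (exact sign-flip permutation, adjusted over these 4, added after the values were seen).

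By gene, the share of partners within the 10 genes was highest for TRAJ5 (14 of 20), TRAJ6 (20 of 31) and TRAJ13 (22 of 41), and lowest for TRAJ7 (5 of 27). TRAJ15, with the most pairs, had 32 of 76, TRAJ12 24 of 68, TRAJ9 20 of 42, TRAJ11 10 of 25, TRAJ4 10 of 23 and TRAJ2 5 of 10. The 2 chains of a cell used the same TRAJ gene in 22 of the 81 cells, and in 0 cells the same V and J gene together. Chains of 1 cell and sister cells of 1 clone share their source, so these counts are a description.

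A nonproductive second contig showed the same tendency on small numbers. Among cells with a productive chain of the 10 genes and a nonproductive TRA contig, 17 of 54 nonproductive contigs used the 10 genes. Among cells with a productive chain of other TRAJ genes, 18 of 291 did. By library, the first share was 20% of 5 in PBS1, 44.4% of 9 in PBS2, 0 of 7 in CSF1R, 0 of 3 in CTX, 33.3% of 6 in CTX2 and 41.7% of 24 in Combined, so it was not above the second in CSF1R and CTX.

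How often a cell had 2 productive chains differed by less than the spread between libraries. The share of cells with a second productive TRA was 17.4% ± 4.03 where the leading chain used the 10 genes and 15.3% ± 1.84 otherwise, higher in 3 of 6 libraries (exact sign-flip permutation p = 0.3125, adjusted p = 0.562). The 10 genes made up 14.2% ± 2.26 of productive and 10.1% ± 4.74 of nonproductive rearrangements (exact sign-flip permutation p = 0.1875, adjusted p = 0.422). In all, 58 of 510 nonproductive rearrangements used them (11.4%), against 12.9% of productive ones. Combined held 324 of the 510, and there the productive and nonproductive shares were 12.6% and 12.7%. The other libraries held 20 to 51 nonproductive rearrangements each. Among the 10 genes, TRAJ2 stood out with 10 nonproductive beside 34 productive rearrangements, and TRAJ6 had 10 beside 97, whereas TRAJ5 had 0 beside 63.

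CDR3 loops built with the downstream genes were slightly shorter. The mean length was 13.5 amino acids against 13.9 with other TRAJ genes in PBS1, 13.3 against 13.7 in PBS2, 13.1 against 13.6 in CSF1R, 13.6 against 13.8 in CTX, 13.1 against 13.8 in CTX2 and 13.2 against 13.7 in Combined. Every library had the shorter mean with the downstream genes, a mean difference of -0.428 ± 0.13 (SD, n = 6; exact sign-flip permutation p = 0.03125, adjusted p = 0.141). By stretch, the mean was 14.2 ± 0.157 for TRAJ58 to TRAJ47 and 13.5 ± 0.224 for TRAJ45 to TRAJ34. It was 13.4 ± 0.137 for TRAJ32 to TRAJ21, 13.9 ± 0.326 for TRAJ18 to TRAJ16 and 13.3 ± 0.181 for TRAJ15 to TRAJ2. In PBS1 and CTX the loops of TRAJ32 to TRAJ21 were the shorter ones, at 13.2 and 13.4. Over all libraries, loops of 15 amino acids made up 9.56% with the 10 genes and 18.5% with others, loops of 13 made up 36.2% and 24.3%, and loops of 12 made up 18.5% and 12.7%. As means of libraries, 4.67% of CDR3s with the 10 genes and 11.04% of the others had 16 or more amino acids, while 5.71% and 5.66% had 11 or fewer. The germline J segments differ too. In the RefSeq table the segments used by these rearrangements averaged 59.6 ± 0.216 bases for the 10 genes and 61.4 ± 0.113 for the others, shorter in 6 of 6 libraries.

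**Figure D5:**
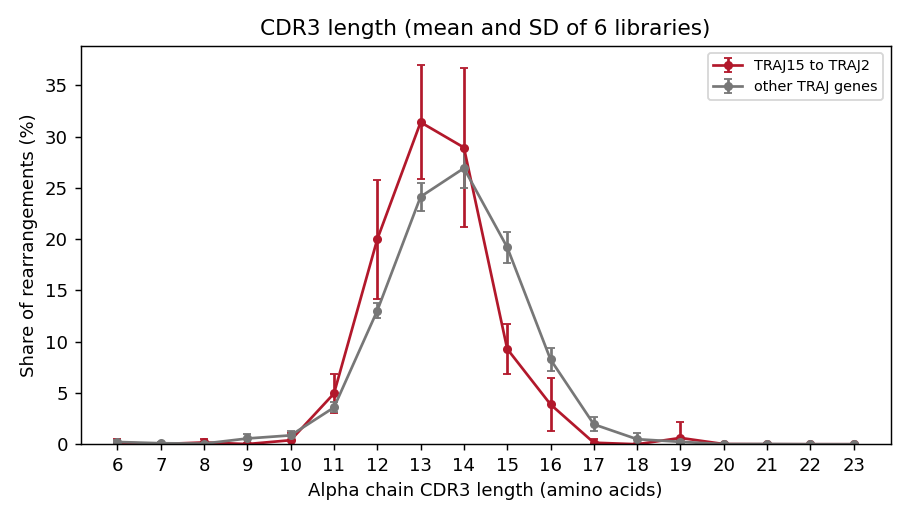
Distribution of TRA CDR3 length in amino acids for rearrangements with TRAJ15 to TRAJ2 (red) and with other TRAJ genes (grey), as share of rearrangements (%), mean and SD of 6 libraries. The red curve lies lower at 15 and 16 amino acids; 4.67% of red and 11.04% of grey loops have 16 or more.

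Within the group, loop length differed by J gene, whose stretches are printed above. TRAJ13, with the shortest stretch, had the shortest loops at 12.7 amino acids on average, and TRAJ2, with the longest, had the longest at 15.3. TRAJ9 and TRAJ12 had 12.99, TRAJ7 had 13, TRAJ15 had 13.2, TRAJ11 and TRAJ5 had 13.3, TRAJ4 had 14.0 and TRAJ6 had 14.1. The order did not follow the stretch throughout: TRAJ5, with 30 bases, had shorter loops than TRAJ4 and TRAJ6, with 29 each. TRAJ5 loops varied most, from 6 to 16 amino acids with an SD of 2.31, against an SD of 0.895 for TRAJ13. Only 57 of the 63 TRAJ5 rearrangements had the usual CDR3 end, and the part of the others in this spread was not tested. Such means are over the rearrangements of all libraries, most of them from Combined.

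Differences in beta chain partners were smaller than the spread between libraries. Of rearrangements with a productive beta chain in the cell, 64.3% ± 8.18 with the 10 genes and 63.5% ± 3.63 with others had a beta chain of the TRBJ2 cluster (exact sign-flip permutation p = 0.75, adjusted p = 0.75). The direction turned without the library CSF1R, to -1.91 points. The TRBV13 family was found in 31.9% ± 4.13 and 33.7% ± 5.01 (exact sign-flip permutation p = 0.375, adjusted p = 0.562), and that difference of -1.84 points ranged from -4.14 without possible doublets to -0.355 with contigs of 2 or more UMIs. The most frequent beta V genes beside the 10 genes were TRBV13-2 (14.1% against 15.2%), TRBV19 (10.2% against 10.9%) and TRBV13-3 (8.99% against 7.65%). Median UMIs per TRA contig, a measure of depth, were 4.92 and 4.50 on average (exact sign-flip permutation p = 0.5).

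The share of rearrangements in expanded clones differed by less than the spread between libraries. Cells of 1 library with an identical beta chain (TRBV gene and CDR3 nucleotides) were taken as a clone. The share in clones of 2 or more cells was 16.7% against 11.1% in PBS1, 0% against 5.56% in PBS2, 3.77% against 3.24% in CSF1R, 14.3% against 10.1% in CTX, 17.5% against 15.9% in CTX2 and 1.53% against 1.37% in Combined. The mean difference was 1.09 ± 3.88 points (exact sign-flip permutation p = 0.4375, adjusted p = 0.562). Per cell, the difference was -11.7 points (exact sign-flip permutation p = 0.21875).

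Of 176 clones with 2 or more cells, 24 (13.6%) had one of the 10 genes in their main TRA, close to the 12.9% of these genes among all rearrangements, and those 24 held 65 of 1110 cells. Of 21 clones with 10 or more cells, which held 683 cells, 0 did, which allows a share of up to 14.3%, and 14 of the 21 were in CTX2. A large clone counts once as a rearrangement and many times as cells, so these clones enter the 2 ways of counting with different weight. The largest clone with one of the 10 genes had 7 cells in CTX, and 4 others had 4 cells. The alpha CDR3 sequences of these 5 leading clones follow, named by library, V gene and J gene, with capitals marking the bases that match the J stretch.
CTX TRAV8D-1 TRAJ12: tgtgcccCTGGAGGCTATAAAGTGGTCTTT
CTX TRAV7-3 TRAJ12: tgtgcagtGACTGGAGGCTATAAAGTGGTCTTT
CTX2 TRAV9-4 TRAJ15: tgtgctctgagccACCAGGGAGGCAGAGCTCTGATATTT
CTX2 TRAV9D-1 TRAJ13: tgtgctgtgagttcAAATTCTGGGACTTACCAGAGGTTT
CTX TRAV9-4 TRAJ2: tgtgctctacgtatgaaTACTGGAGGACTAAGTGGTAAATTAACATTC

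The 7 cells of the first clone all carried this alpha chain beside a TRBV4 and TRBJ2-2 beta chain. The second paired TRBV13-2 with TRBJ2-3, the third TRBV1 with TRBJ1-5, the fourth TRBV31 with TRBJ1-1 and the fifth TRBV13-2 with TRBJ2-1. In the fourth, 3 of 4 cells had the alpha chain shown as their main chain, and in the fifth 2 of 4 cells had any TRA contig.

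Few rearrangements with the downstream genes recurred between libraries. The same V gene, J gene and CDR3 nucleotides were found in 2 or more libraries for 6 of 1205 (0.498%), and for 126 of 9241 (1.36%) over all TRAJ genes. At the level of amino acids, 14 of 1183 chains (1.18%) recurred with the 10 genes and 199 of 7780 (2.56%) with others. Of the 14, 13 were in 2 libraries and 1 was in 5.

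The chain in 5 libraries joined TRAV3-3 to TRAJ15 with a CDR3 of 14 amino acids. It was found in 1 of 188 TRA cells in PBS1, 4 of 404 in PBS2, 2 of 764 in CSF1R, 9 of 504 in CTX, 6 of 1044 in CTX2 and 0 of 6070 in Combined, 22 cells in all. The share was highest in CTX, at 1.79% (exact Clopper-Pearson 95% interval 0.82 to 3.36), and in Combined the count of 0 allows a share of up to 0.0494%. The chain was encoded by 2 nucleotide sequences, printed here because both were found in more than 1 library.
17 cells in PBS2, CSF1R, CTX and CTX2: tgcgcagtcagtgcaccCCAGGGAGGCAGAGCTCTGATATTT
5 cells in PBS1, CTX and CTX2: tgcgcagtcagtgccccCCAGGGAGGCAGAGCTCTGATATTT

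These 22 cells did not belong to 1 clone. Of them 18 had a beta chain, and the 18 carried 16 different beta chains with 8 TRBV genes, led by TRBV13-1 with 4 cells and TRBV19, TRBV31 and TRBV2 with 3 each. The chain was the leading TRA of 20 of the 22 cells and rested on a median of 7 UMIs, against a median of 3 to 6 for all TRA contigs of the 6 libraries. Among 8452 alpha chains with a beta partner, only the TRAV11 and TRAJ18 chain of NKT cells had more different beta chains, 19, a comparison chosen after the values were seen. The next chain with one of the 10 genes had 4.

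The remaining recurrent chains were each in 2 libraries and in at most 4 cells. They include TRAV4-3 with TRAJ12 in Combined and PBS2, in 4 cells with 4 different beta chains, and TRAV3-3 with TRAJ7 in CSF1R and CTX, in 3 cells with 3. TRAV13-1 with TRAJ13 and TRAV13-1 with TRAJ12 were in 2 cells each. No more than 2 cells of any of them shared the nucleotide sequence printed here.
TRAV4-3 TRAJ12: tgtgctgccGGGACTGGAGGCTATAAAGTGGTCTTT
TRAV3-3 TRAJ7: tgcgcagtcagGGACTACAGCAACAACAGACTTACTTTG
TRAV13-1 TRAJ13: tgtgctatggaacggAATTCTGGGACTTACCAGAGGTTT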

How the data were processed

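T cell receptor libraries of CD45+ cells from mouse mammary tumours were made with droplet kits that read from the 5′ end and enrich receptor RNA, per the labels' protocols. Reads were processed with Cell Ranger 3.0.2 on mm10, also named GRCm38, per the submitters' processing notes. Their deposited table gives each contig's read count and UMI count, which are not normalized, with its cell call, genes, CDR3, productive status and length. Cell calls and genes were not recalled, and 5 of 11 library names matched no label and were not used. Column totals of reads in the 6 libraries used ran from 31178451 to 83903661.

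Each V gene and CDR3 nucleotide sequence counted once per library. Pairs used the 2 productive TRA contigs with most UMIs. Measures with the 10 genes and with other TRAJ genes were compared within libraries by a two-sided exact sign-flip permutation, and treated with untreated libraries by an exact permutation test, with Benjamini-Hochberg adjustment at 0.05. The named TRAV genes are the 5 most used, the 5 with the largest difference in each direction and both ends of the locus; named clones are the 5 largest. The genes and lists were chosen with earlier results of these data known. Calculations ran in Python 3.11.15 with pandas 2.3.3, scipy 1.17.1 and numpy 2.4.6, figures in matplotlib 3.10.9, and the functions were tested on simulated data.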

Additional observations from a re-analysis of the deposited data

Results flagged for a closer look

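Of 19 effects compared between the untreated library PBS1 and the 4 treated libraries, 3 went one way in PBS1 and the opposite way in every treated library. Differences between the groups were not tested, and PBS1 held 27 rearrangements with the 10 genes. The TRAV partner number with the 10 genes was higher than with other TRAJ genes by 7.19 in PBS1 and lower in the treated libraries, by -14.1 to -7.44. The share of TRAV9N-4 differed by -1.69 percentage points in PBS1 and by 0.555 to 3.42 in the treated libraries, and that of TRAV4N-4 by 2.01 in PBS1 and by -3.94 to -2.21 in the treated ones. In PBS1 these were 0% against 1.69% for TRAV9N-4 and 3.70% against 1.69% for TRAV4N-4, so they rest on very few rearrangements. Both genes had been picked for large differences in these data. PBS2, whose labels conflict, went with the treated libraries in the TRAV partner number, at -10.7. It did so too for TRAV9N-4 (3.51% against 1.44%) and TRAV4N-4 (1.75% against 3.75%). Among the 4 treated libraries, none stood apart from the others in the 30 values checked for it. PBS1 and PBS2 were not part of that check.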

How the results depend on the processing

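Depth was 1 limit: PBS1 held 27 rearrangements with the 10 genes, and without it no treated and untreated comparison can be made. The TRAV partner number, CDR3 length, pairing of 2 alpha chains and treated against untreated share kept their direction in every alternative run. Leaving out 1 library gave -9.85 to -5.59, -0.463 to -0.384, 3.14 to 3.43 (log2 odds ratio) and -5.78 to -5.22. With each cell counted once, the TRAV partner difference was -2.78. The difference in the share of a second productive TRA became -0.516 with high-confidence contigs and -0.195 with contigs of 2 or more UMIs. The TRBJ2 difference became -0.399 with 2 or more UMIs, -1.74 without possible doublets, -3.68 per cell and -0.442 without barcodes whose TRA was in another library, and ran from -1.91 to 4.32 with 1 library left out. The difference in expanded clones became -11.7 per cell and -0.668 for clones of 3 or more cells. The cause of these turns was not tested. The TRBV13 difference was -3.94 per cell and -2.82 to -0.617 with 1 library left out.

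With families, 3 TRAV were lower and 0 higher in every library. Leaving out 1 library gave 6 to 11 lower and 1 to 4 higher TRAV genes, and 2 to 4 lower and 3 to 6 higher TRAJ genes. With single-copy TRAV families only 2 TRAJ genes were testable, TRAJ53 and TRAJ34, both outside the group. Both passed, 1 lower and 1 higher, with adjustment over these 2 alone. With all TRAV genes, adjusted over 38 TRAJ genes, their adjusted p was 0.622 and 0.396 (exact sign-flip permutation). Leave-one-out ranges that crossed 0 were -0.183 to 1.56 for TRAV6-3, -0.275 to 1.89 for TRAV6-7-DV9, -4.52 to 2.96 for TRAJ15, -8.00 to 1.24 for TRAJ12, -7.17 to 5.68 for TRAJ7, -10.9 to 6.28 for TRAJ6 and -17.2 to 3.08 for TRAJ5. TRAJ15 became 5.57 per cell, TRAJ12 4.46 with 2 or more UMIs and 0.117 per cell, and TRAJ7 -1.72 with high-confidence contigs and -0.614 without barcodes whose TRA was shared. No paired analysis was possible because no replicate numbers link the libraries of the groups compared.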
